A study of Mus musculus with 2 samples.

Results

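A set of 10 genes that define or read out the epithelial-mesenchymal switch was described in a mouse colorectal carcinoma line and in cells recovered from the lung tumours it formed. Zeb1, Zeb2, Snai1, Snai2 and Twist1 encode transcription factors, and Cdh1, Cdh2, Vim, Esrp1 and Epcam are readouts of the epithelial or mesenchymal state. They were chosen by symbol, with every probe set that the platform annotation gives to that 1 symbol. This gave 10 of 18193 annotated genes and 22 of 45037 probe sets.

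The study asked which genes differ between cells that had formed tumours in the lung and the cells that were injected. The lung-recovered line, CMT-93-PM1, was grown in primary culture from lung tumours of 6-week-old female C57BL/6 mice, removed 8 weeks after a tail vein injection of CMT-93. The parental line, CMT-93, is a mouse rectal carcinoma line obtained from a cell bank. Both were grown in the same serum-containing medium, and 6 µg of total RNA from each went onto 1 Affymetrix array. The labels do not say how many mice or tumours gave the recovered culture. With 1 array per line there was no replicate, no test and no error between samples, and an effect of the culture or of the array cannot be told apart from a difference between the lines. In RNA from a whole culture, fewer cells of a type and less RNA per cell cannot be told apart either.

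Epithelial cells hold together through E-cadherin, which binds catenins and actin at adherens junctions. ZEB, SNAIL and TWIST family factors repress E-cadherin and other epithelial genes, ZEB and SNAIL proteins through E-box sequences, and cells that lose E-cadherin often gain N-cadherin and the filament protein vimentin. ESRP1 drives the epithelial splicing of many transcripts and EPCAM is a surface adhesion protein of simple epithelia, including that of the gut, so the loss of either is also read as a mesenchymal shift.

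The E-box variant bound by ZEB and SNAIL proteins has the letters CAGGTG, read as CACCTG on the other strand. It was searched on both strands in the RefSeq promoter windows of assembly GRCm38.p6, which run from 250 bases before to 50 bases after a gene's start. The table used holds 5 of the 10 genes (Vim, Zeb2, Snai1, Twist1 and Epcam) in 8 windows. The Epcam and Vim promoters are shown because they belong to an epithelial and a mesenchymal readout, of which the first held the motif more than once and the second did not hold it. Each run gives the 250 bases before the start on the plus strand, at chr17:87635729-87635978 for Epcam and chr2:13574061-13574310 for Vim, and capitals mark the motif.
Epcam: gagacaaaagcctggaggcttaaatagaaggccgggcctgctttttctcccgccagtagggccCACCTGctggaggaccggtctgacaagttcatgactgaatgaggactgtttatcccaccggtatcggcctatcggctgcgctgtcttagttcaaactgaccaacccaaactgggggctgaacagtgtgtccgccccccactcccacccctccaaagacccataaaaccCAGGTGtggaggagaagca
Vim: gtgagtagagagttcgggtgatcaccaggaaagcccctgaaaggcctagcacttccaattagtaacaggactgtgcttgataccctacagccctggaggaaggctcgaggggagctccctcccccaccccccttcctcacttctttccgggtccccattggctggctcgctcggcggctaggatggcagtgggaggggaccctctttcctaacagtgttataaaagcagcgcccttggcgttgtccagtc
The Epcam window held 2 matches, which begin 187 and 19 bases before the start. The Snai1 window held 1 match, 126 bases before the start, and the Vim, Zeb2 and Twist1 windows held 0. Of all 32851 windows, 20.2% held the motif at least once and 2.88% at least 2 times. The general E-box letters CANNTG, in which N is any base and which include CAGGTG, were found 3 times in the Epcam window and 0 times in that of Vim. They were found in 72.3% of all windows. A match describes these letters only, and binding was not measured here.

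Signals are log2 values as deposited. Each array was given a floor at its 40th percentile, 4.59 for the lung-recovered and 4.69 for the parental array, and a probe set at or under the floor on both arrays counts as not measured. Log2 ratios are lung-recovered minus parental, and a difference was counted when it reached 2-fold. The median signal was 5.26 on the lung-recovered and 5.36 on the parental array, and the highest signals were 14.28 on the lung-recovered and 14.25 on the parental array. The signals of the arrays correlated across probe sets with Pearson's r of 0.980, a description over points that share 2 arrays. The only spread these data hold is that between probe sets of 1 gene on the same arrays. Its median SD was 0.17 log2 over 5782 genes with several probe sets above both floors, and its 90th percentile was 0.49. The signal of a probe set depends on its probes as well as on the RNA, so levels of different genes are not compared. The brightest gene of a list is the one with the highest mean signal over both arrays, and this order only chose which gene is named.

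Of the 22 probe sets, 15 lay above the floor on both arrays and 7 lay at or under it on both. The 15 came from 8 genes, and Snai1 and Twist1 had none. Ratios were above 0 for 11 of these and below 0 for 4, with a median of 0.15 and a range of -0.57 to 0.84. None reached 2-fold, so 0 were higher and 0 were lower, beside 3.74% higher and 3.08% lower among all 28110 probe sets measured. With each gene represented by its brightest probe set, 0 of 8 measured genes were 2-fold higher and 0 were 2-fold lower. Among all 13332 measured genes, 589 (4.42%) were 2-fold higher and 340 (2.55%) were 2-fold lower. A count of 0 among 8 genes is near these shares.

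**Figure D1:**
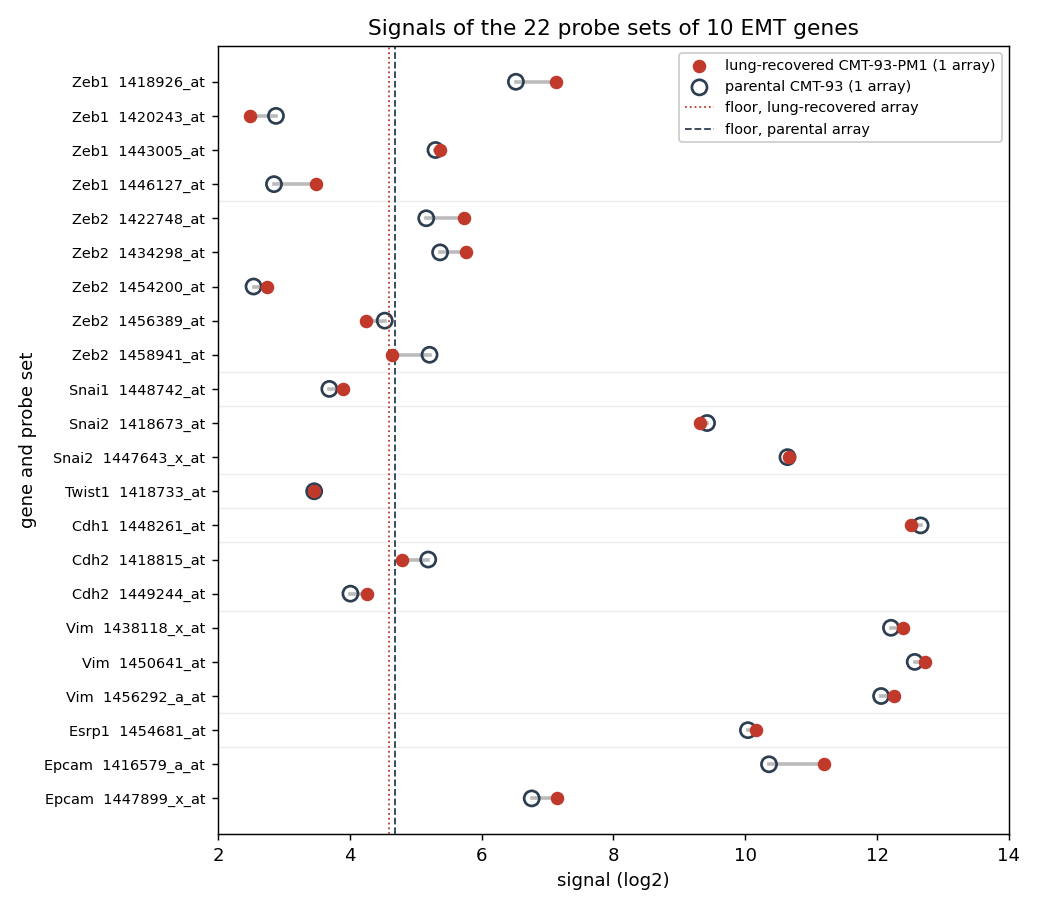
Log2 signal (horizontal axis) of each of the 22 probe sets (rows, by gene) on the lung-recovered array (filled circles) and on the parental array (open circles), with 1 array per line; vertical lines mark the floors of 4.59 and 4.69. The circles of a probe set lie close together throughout, with Cdh1, Vim and Esrp1 far to the right of the floors and Snai1 and Twist1 to the left of them on both arrays.

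Among the factors, Zeb1, a zinc-finger repressor of Cdh1, had the highest ratio. Its brightest probe set (1418926_at) read 7.13 in the lung-recovered line and 6.52 in the parental line, a log2 ratio of 0.61 or 1.53-fold. A second probe set (1443005_at) read 5.37 in the lung-recovered line and 5.30 in the parental line, a ratio of 0.07. The size of the Zeb1 difference therefore rests on 1 probe set. The other 2 were at the floor in both lines, at 2.48 and 3.48 in the lung-recovered line and 2.88 and 2.85 in the parental line. Of all measured genes, 17.5% lay at least as far from 0 as Zeb1.

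Zeb2, the close relative of Zeb1, gave probe sets of opposite sign. Its brightest (1434298_at) read 5.77 in the lung-recovered line and 5.37 in the parental line, a ratio of 0.40. Another (1422748_at) read 5.73 in the lung-recovered line and 5.16 in the parental line, a ratio of 0.57. The third (1458941_at) read 4.64 in the lung-recovered line, just above the floor, and 5.21 in the parental line, a ratio of -0.57. No direction could therefore be given for Zeb2, and 32.2% of measured genes lay at least as far from 0 as its brightest probe set. Its remaining probe sets were at the floor in both lines, at 2.74 and 4.25 in the lung-recovered line and 2.54 and 4.53 in the parental line.

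Snai1 and Snai2 encode SNAIL and SLUG, zinc-finger repressors that bind the same E-boxes. Snai1 (1448742_at) read 3.90 in the lung-recovered line and 3.69 in the parental line, at the floor in both. Snai2 was well above the floor in both lines. Its brighter probe set (1447643_x_at) read 10.66 in the lung-recovered line and 10.64 in the parental line, and the other (1418673_at) read 9.32 in the lung-recovered line and 9.42 in the parental line. The ratios of 0.02 and -0.10 lie on both sides of 0 and are both smaller than the median spread between probe sets, and 95.6% of measured genes lay at least as far from 0 as the first. Under other scalings the first ratio lay between -0.04 and 0.12, so its sign is not settled. Twist1, a basic helix-loop-helix factor, read 3.46 in both lines with its 1 probe set (1418733_at), at the floor. So of the 5 factors, Snai2 and the ZEB genes had measurable signal in both lines, and for Snai1 and Twist1 no difference could be measured.

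Of the epithelial readouts, Cdh1, the E-cadherin gene, read 12.52 in the lung-recovered line and 12.66 in the parental line with its 1 probe set (1448261_at). The ratio of -0.14 is smaller than the median spread between probe sets, and 71.7% of measured genes lay at least as far from 0. Both signals were far above the floor, near the bright end of the arrays. Esrp1 read 10.16 in the lung-recovered line and 10.04 in the parental line (1454681_at), a ratio of 0.12. It too lay within that spread, and 75.4% of measured genes lay at least as far from 0.

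Epcam was the gene furthest from 0 among the 10. Its brighter probe set (1416579_a_at) read 11.20 in the lung-recovered line and 10.36 in the parental line, a log2 ratio of 0.84 or 1.79-fold. The other (1447899_x_at) read 7.14 in the lung-recovered line and 6.76 in the parental line, a ratio of 0.38. Both had the higher signal in the lung-recovered line, although the sizes differ and neither reached 2-fold. Of all measured genes, 9.76% lay at least as far from 0 as the brighter probe set.

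Of the mesenchymal readouts, Cdh2, the N-cadherin gene, lay near the floor in both lines. Its brighter probe set (1418815_at) read 4.79 in the lung-recovered line and 5.19 in the parental line, a ratio of -0.40, and 32.2% of measured genes lay at least as far from 0. The other (1449244_at) read 4.26 in the lung-recovered line and 4.01 in the parental line, at the floor in both. Vim, the vimentin gene, was bright in both lines. Its probe sets read 12.72, 12.40 and 12.26 in the lung-recovered line and, in the same order (1450641_at, 1438118_x_at and 1456292_a_at), 12.57, 12.21 and 12.06 in the parental line. The ratios of 0.15, 0.19 and 0.20 agree within the spread between probe sets, and 69.6% of measured genes lay at least as far from 0 as the brightest. Cdh1 and Vim were thus both far above the floor in each line.

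**Figure D2:**
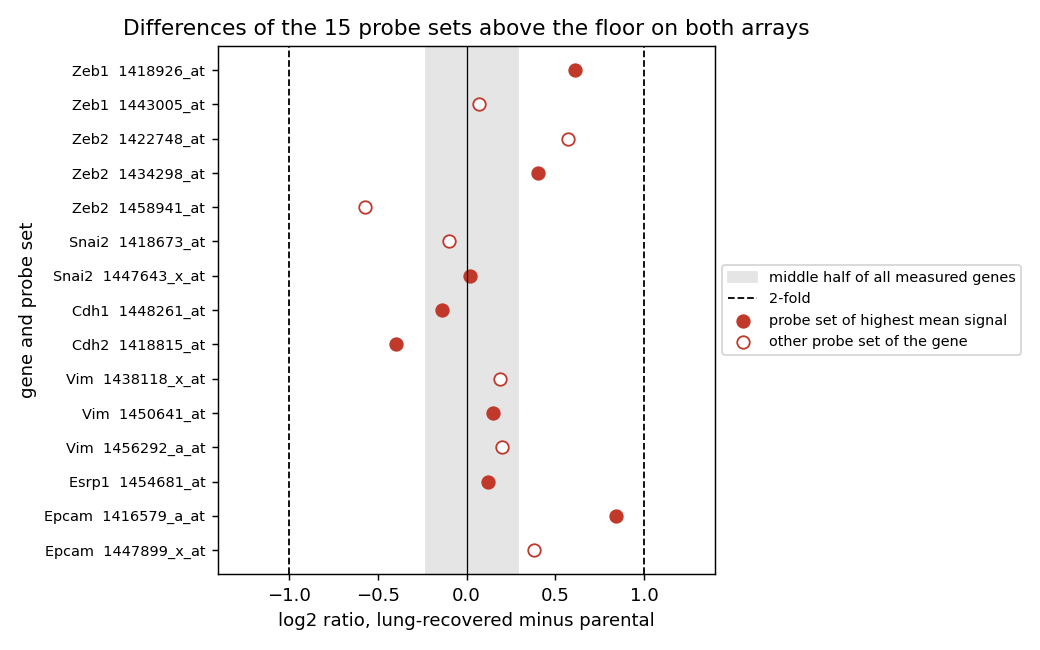
Log2 ratio, lung-recovered minus parental (horizontal axis), of the 15 probe sets (rows) that exceeded the floor on each array; filled circles are the brightest probe set of a gene, open circles the others, the grey band is the middle range of all measured genes between the quartiles of -0.23 and 0.29, and dashed lines mark 2-fold. All 15 lie between the dashed lines, Epcam 1416579_a_at lies furthest right at 0.84, and the Zeb2 probe sets lie on both sides of 0.

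At a looser size of 1.5-fold, 2 of the 8 measured genes were higher, Zeb1 and Epcam, and 0 were lower. Among all measured genes 11.5% were higher and 6.95% were lower at that size. Zeb1 fell short of that size after quantile normalization, at 0.56 log2, and by the median over its probe sets, at 0.34.

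The labelled cell type was checked with marker genes. Of 10 epithelial markers, all 10 were above the floor on both arrays, 9 had a ratio above 0 and 1, Cdh1, below 0. Their median was 0.28 with a range of -0.14 to 0.92, and 0 passed 2-fold in either direction. Over all measured genes 4.42% were 2-fold higher and 2.55% were 2-fold lower, so a count of 0 among 10 genes is near these shares. Beside Cdh1, Epcam and Esrp1, these were the simple-epithelial keratin genes Krt8, Krt18 and Krt19, the claudin genes Cldn3, Cldn4 and Cldn7, and the occludin gene Ocln. Krt18 and Krt8 are given after their values were seen. Krt18 read 12.88 in the lung-recovered line and 11.96 in the parental line, and Krt8 read 12.54 in the lung-recovered line and 11.98 in the parental line. Scaled to equal medians, Krt18 was at 1.02 log2, past 2-fold. Of 10 mesenchymal markers, 7 were measured, with 3 ratios above 0 and 4 below 0, a median of -0.19 and a range of -1.05 to 0.61. The fibrillar collagen genes Col1a1 and Col3a1 were at the floor in both lines, with Col1a1 at 3.96 in each, and so was Twist1. Of the 7, S100a4 passed 2-fold and is described with the mesenchymal readouts.

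Markers of colonic epithelium were weak in both lines. Of 6, only the intestinal transcription factor gene Cdx2 and the intestinal cadherin gene Cdh17 were measured. Cdx2 read 5.08 in the lung-recovered line and 5.24 in the parental line, near the floor. Cdx1, Vil1, Lgals4 and Krt20 were at the floor in both lines. The arrays therefore show simple-epithelial genes in both lines but few genes of differentiated colon.

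The wider set of 46 epithelial readouts on the array was taken from a list of junction, polarity, keratin and surface genes. Of 39 measured, 4 (10.3%) were 2-fold higher in the lung-recovered line and 1 (2.56%) was 2-fold lower, beside 4.42% and 2.55% over all measured genes. Ratios were above 0 for 30 genes (76.9%) and below 0 for 9, with a median of 0.24, beside 49.2% above 0 and a median of 0.00 over all measured genes. Higher were Myo5b, an apical transport motor (7.50 in the lung-recovered line and 5.67 in the parental line, 3.56-fold), and Muc1, an apical mucin (7.26 in the lung-recovered line and 5.61 in the parental line, 3.14-fold). The protease inhibitor gene Spint1 read 9.36 in the lung-recovered line and 8.11 in the parental line, 2.38-fold higher, and Cdh17 read 6.77 in the lung-recovered line and 5.77 in the parental line, 2-fold higher. Cdh17 sits at the limit and was at 0.59 log2 under a floor at the 60th percentile. Myo5b was at 0.97 log2 when probe sets with IDs that end in _s_at, _x_at or _a_at, called suffixed here, were left out. The lower gene was Dsg2, a desmosomal cadherin, at 8.76 in the lung-recovered line and 10.94 in the parental line, 4.53-fold lower, with its 5 other measured probe sets between -2.88 and -1.55 log2. The brightest was Krt19, at 12.98 in the lung-recovered line and 12.72 in the parental line. With the arrays scaled to equal medians, 7 genes of this list were 2-fold higher in place of 4. Over the alternatives that keep the 2-fold size, 3 to 7 were higher and 1 to 2 lower. Ratios were above 0 for 24 to 33 genes over these alternatives, and for 27 to 31 under the scalings.

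The 55 mesenchymal readouts on the array, genes of matrix, matrix proteases and the contractile and migratory cytoskeleton, had ratios on both sides of 0. Of 38 measured, 3 (7.89%) were 2-fold higher and 2 (5.26%) were 2-fold lower, beside 4.42% and 2.55% over all measured genes. Ratios were above 0 for 19 genes (50%) and below 0 for 16, with a median of 0.01, beside 49.2% above 0 and a median of 0.00 over all measured genes. Under the 3 scalings 22 to 23 were above 0 and 14 to 15 below 0, with a median of 0.10 to 0.11. Mmp14, a membrane-bound collagenase, read 9.58 in the lung-recovered line and 7.32 in the parental line, 4.79-fold higher, and its other probe sets were at 2.15 and 2.22 log2. Ccn1, a secreted matrix protein gene, read 12.53 in the lung-recovered line and 11.14 in the parental line, 2.62-fold higher, but was at 0.81 by the median over its probe sets and 0.23 without the suffixed ones. Pmp22, a membrane protein gene, read 10.54 in the lung-recovered line and 9.39 in the parental line, 2.22-fold higher.

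In the same list, Timp3, an inhibitor of matrix proteases, read 4.76 in the lung-recovered line, just above the floor, and 8.75 in the parental line, 15.9-fold lower. Of its 3 other probe sets, 2 were at the floor in the lung-recovered line, and the ratio was -2.60 log2 under a floor at the 60th percentile. S100a4, a calcium-binding protein gene often used as a mesenchymal marker, read 10.70 in the lung-recovered line and 11.75 in the parental line, 2.07-fold lower, and was at -0.95 log2 with equal medians. The brightest, the actin-bundling gene Fscn1, read 12.87 in the lung-recovered line and 11.91 in the parental line, a ratio of 0.96. Its other probe sets lay between 0.87 and 1.30 log2, and its ratio was 0.94 to 1.06 under the scalings. Fn1, the fibronectin gene, named after its value was seen, read 12.00 in the lung-recovered line and 11.77 in the parental line, a ratio of 0.23, and its other probe set was at -0.56. The genes past 2-fold in this list thus point both ways.

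**Figure D3:**
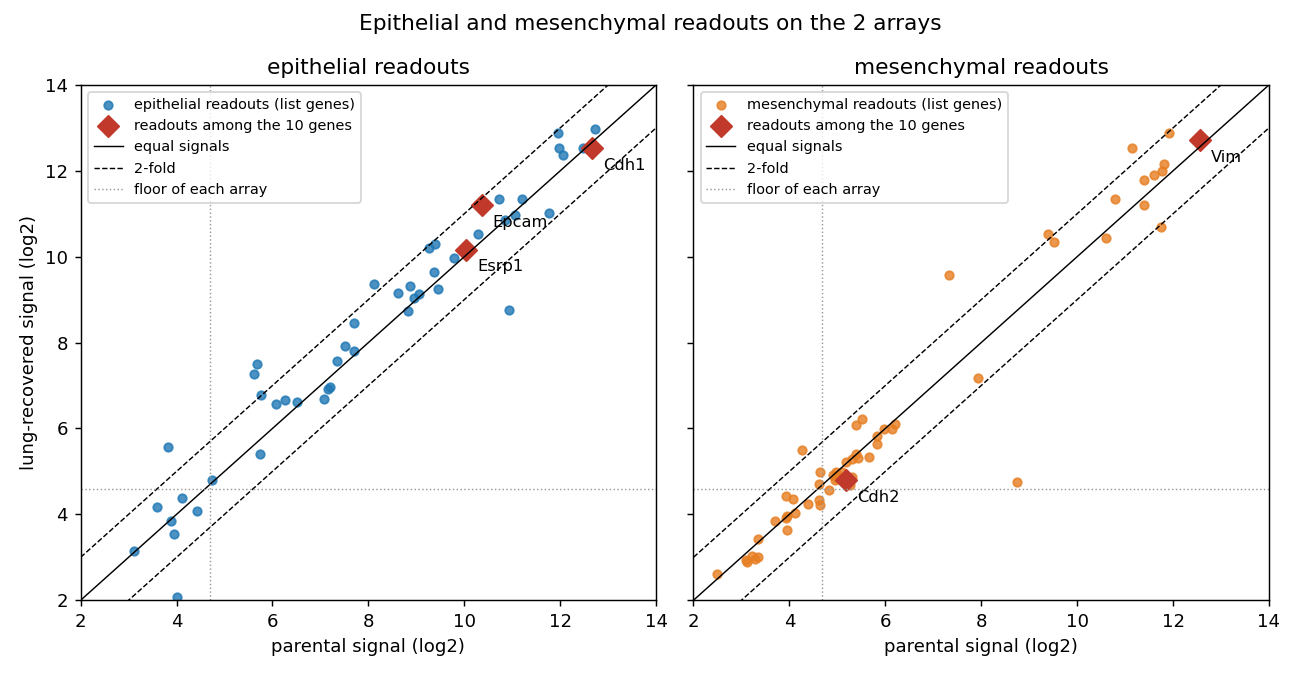
Log2 signal on the lung-recovered array (vertical axis) against the parental array (horizontal axis) for epithelial (left) and mesenchymal (right) readouts, 1 point per gene; diamonds are the readouts among the 10 genes, the solid line marks equal signals, dashed lines 2-fold and dotted lines the floors. The diamonds lie between the dashed lines, most epithelial points lie on or above the solid line, and many mesenchymal points lie near the floors. Dsg2 lies below the lower dashed line, and so does Mal2, which is under both floors and not measured.

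Other transcription factors that promote a mesenchymal state were on the array for 17 of 20 symbols, and 13 were measured. Ratios were above 0 for 8 and below 0 for 5, with a median of 0.14. Ets1 read 10.39 in the lung-recovered line and 9.13 in the parental line, 2.39-fold higher, with other probe sets between 0.59 and 1.15 log2. The median over all of its probe sets was 0.99, under 2-fold. Id1, an inhibitor of basic helix-loop-helix factors, read 8.30 in the lung-recovered line and 10.10 in the parental line, 3.48-fold lower. Sox4, the brightest, read 11.89 in the lung-recovered line and 11.75 in the parental line. Twist2, Prrx1, Foxc2 and Gsc, like Twist1 and Snai1, were at the floor in both lines.

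Transcription factors that hold the epithelial state had 14 of 19 genes measured, with 5 ratios above 0, 8 below 0 and a median of -0.12. After each of the 3 scalings 7 were above and 7 below 0, with a median of -0.02 to -0.01. Grhl1, a grainyhead factor, read 8.77 in the lung-recovered line and 7.58 in the parental line, 2.28-fold higher. Ehf, an epithelial ETS factor, read 5.78 in the lung-recovered line and 8.69 in the parental line, 7.52-fold lower, with its other probe sets at -2.77 and -2.43. Tfcp2l1, a factor related to the grainyhead family, read 4.47 in the lung-recovered line, at the floor, and 7.34 in the parental line, at least 6.73-fold lower, or -1.19 log2 under a floor at the 60th percentile. The brightest, the gut epithelial factor gene Klf5, read 11.79 in the lung-recovered line and 11.02 in the parental line, a ratio of 0.77. Its other measured probe set was at -0.14 log2. Grhl2, a known activator of Cdh1 that was chosen after its value was seen, read 5.59 in the lung-recovered line and 5.78 in the parental line. This list therefore holds members past 2-fold on both sides.

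ZEB and SNAIL proteins act through corepressors, and SNAIL is short-lived. Of 19 corepressor genes, 18 were measured and 0 passed 2-fold in either direction, beside 4.42% higher and 2.55% lower over all measured genes. Of their ratios, 9 lay on each side of 0 with a median of 0.02. After scaling to equal medians 12 were above and 5 below 0, and after quantile normalization 7 were above and 10 below. The brightest, Ctbp1, which encodes the C-terminal binding protein that ZEB factors recruit, read 11.37 in the lung-recovered line and 11.56 in the parental line. Of 19 genes for the turnover and activity of SNAIL proteins, 17 were measured, 11 ratios were above 0 and 5 below 0, with a median of 0.10. Lats2, a Hippo pathway kinase that phosphorylates SNAIL, read 8.18 in the lung-recovered line and 7.16 in the parental line, 2.03-fold higher, and it was between 0.86 and 0.96 log2 after quantile normalization, after lowess, by the median over probe sets and without suffixed ones. Csnk1a1, a casein kinase gene and the brightest, read 11.53 in both lines.

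Cdh1 and Cdh2 proteins act with catenins and actin linkers. Of 25 adherens junction partners on the array, 18 were measured, with 14 ratios above 0, 4 below 0 and a median of 0.39. This median lay between 0.14 and 0.49 under the alternatives. Lima1, which encodes the actin-binding linker EPLIN, read 9.30 in the lung-recovered line and 7.92 in the parental line, 2.6-fold higher, and was the only one past 2-fold. Ctnnb1, the beta-catenin gene and the brightest, read 13.47 in the lung-recovered line and 13.09 in the parental line, a ratio of 0.38, and its other probe sets were at 0.37 and 0.41. The alpha-catenin gene Ctnna1 and the p120-catenin gene Ctnnd1, named after their values were seen, had ratios of 0.14 and -0.16.

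Among 24 other cadherin genes, 12 were measured and 4 (33.3%) were 2-fold higher in the lung-recovered line, with 0 lower, beside 4.42% higher and 2.55% lower over all measured genes. All 12 were above the floor in the lung-recovered line and 9 in the parental line. Cdhr2 and Cdh5 count as measured only through the array where they are higher, so the floor partly fixed this share and no result is drawn from it. Ratios were above 0 for 6 and below 0 for 5, and above 0 for 9 and below 0 for 3 after each scaling. Their median of 0.01 ranged up to 1.94 under a floor at the 60th percentile, which left few of them measured. Cdhr2, a cadherin-related gene of the gut brush border, read 9.46 in the lung-recovered line and 3.41, at the floor, in the parental line, at least 27.3-fold higher. Cdh5, the endothelial cadherin gene, read 9.30 in the lung-recovered line and 4.21, at the floor, in the parental line, at least 24.4-fold higher, and its dimmer probe set gave at least 1.78-fold. Under a floor at the 60th percentile the bounds were 3.28 log2 for Cdhr2 and 3.12 for Cdh5. Cdh16, the kidney-specific cadherin gene, read 8.12 in the lung-recovered line and 6.05 in the parental line, 4.2-fold higher, and Cdh17 was the fourth. The brightest by the mean of both arrays, Cdh13, which encodes a cadherin with a lipid anchor, read 9.03 in the lung-recovered line and 8.81 in the parental line. Cdhr2, Cdh5, Cdh16 and Cdh17 were named because they reached 2-fold, so a comparison of their sizes with Cdh1 and Cdh2 would be fixed by that choice.

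Esrp1 acts with other splicing regulators on a known set of exons. Of 23 splicing regulators, 20 were measured, with 9 ratios above 0, 11 below 0 and a median of -0.05. Srsf6, a serine- and arginine-rich splicing factor gene, read 10.22 in the lung-recovered line and 11.33 in the parental line, 2.16-fold lower, but its other probe sets lay between -0.59 and -0.37 log2 and the median over all was -0.51. The brightest, Tra2b, read 11.85 in the lung-recovered line and 11.86 in the parental line. The paralog Esrp2, named after its value was seen, read 9.68 in the lung-recovered line and 9.85 in the parental line, so both ESRP genes were well above the floor in both lines.

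Of 25 genes with ESRP-dependent exons, 23 were measured, 15 with ratios above 0 and 8 below 0, and a median of 0.12. Ralgps2, an exchange factor gene for Ral proteins, read 7.50 in the lung-recovered line and 5.14 in the parental line, 5.13-fold higher, with other probe sets at 1.57 and at least 1.29 log2 and 1.32 under a floor at the 60th percentile. Fgfr3 read 7.02 in the lung-recovered line and 5.98 in the parental line, 2.06-fold higher, while its other probe set was at -0.29 log2, its median over probe sets was 0.38 and its value under a floor at the 60th percentile was 0.84. Rac1, a small GTPase gene and the brightest, read 12.80 in the lung-recovered line and 12.52 in the parental line. These signals sum over isoforms, and inclusion of the exons was not measured.

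Vimentin belongs to the intermediate filaments. Of 18 genes for intermediate filaments other than keratins and for linkers of vimentin and other filaments, 12 were measured. The list includes the nuclear lamin genes Lmna, Lmnb1 and Lmnb2, which are not particular to non-epithelial cells. By the brightest probe set of each gene, 0 passed 2-fold in either direction, beside 4.42% higher and 2.55% lower over all measured genes. Of the ratios, 6 lay on each side of 0 with a median of 0.00. The nestin gene Nes, named after its value was seen, had a ratio of 0.61, but its other probe sets were at 1.02 and 1.94 log2. Under the alternatives, 0 to 1 genes of this list were 2-fold higher and 0 to 1 were 2-fold lower. The brightest, the lamin A gene Lmna, read 11.82 in the lung-recovered line and 11.15 in the parental line, a ratio of 0.67. Its other probe sets lay between -0.38 and 1.07 log2. EPCAM protein associates with tetraspanins and claudin-7 and is cut by membrane proteases. Of 20 genes of EPCAM partners and processing, 18 were measured, 15 with ratios above 0 and 3 below 0, and a median of 0.20. Tspan8, a tetraspanin gene, read 11.74 in the lung-recovered line and 9.16 in the parental line, 5.98-fold higher, with other probe sets between 0.23 and 2.60 log2. Spint1 and Ctnnb1 are members of this list too. Cldn7, named after its value was seen, read 11.34 in the lung-recovered line and 11.20 in the parental line.

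Upstream of the factors stand TGF-beta family and other inducing signals. Of 31 genes of inducing ligands, receptors and SMADs, 24 were measured, and 5 (20.8%) were 2-fold higher and 1 (4.17%) was 2-fold lower in the lung-recovered line, beside 4.42% and 2.55% over all measured genes. Ratios were above 0 for 17 and below 0 for 6, with a median of 0.17. The TGF-beta ligand gene Tgfb3 read 7.59 in the lung-recovered line and 5.12 in the parental line, 5.54-fold higher, or 1.41 log2 under a floor at the 60th percentile. Tgfb1 read 5.87 in the lung-recovered line and 4.85 in the parental line, 2.03-fold higher, though its median over probe sets was 0.55 log2. Inhba, the activin A subunit gene, read 10.20 in the lung-recovered line and 8.95 in the parental line, 2.38-fold higher. Jag1, a Notch ligand gene, read 8.16 in the lung-recovered line and 6.63 in the parental line, 2.89-fold higher, with other probe sets at 1.51 and 0.16 log2.

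In the same list, the growth factor gene Pdgfb read 6.58 in the lung-recovered line and 4.82 in the parental line, 3.39-fold higher, but at 0.40 log2 under a floor at the 60th percentile. Il6, a cytokine gene, read 4.61 in the lung-recovered line, just above the floor, and 7.89 in the parental line, 9.71-fold lower, or -1.74 log2 under that higher floor. Smad4, the shared signal transducer and the brightest of the list, read 10.97 in the lung-recovered line and 10.93 in the parental line. The 6 list members past 2-fold as deposited were thus all ligand genes, but 2 receptor genes, named after their values were seen, lay just under it. Egfr was at 0.90 log2, with other probe sets from -0.41 to 0.71, and Tgfbr2 at 0.81, with another at 0.91. Under the alternatives that keep the 2-fold size, 3 to 6 genes of the list were higher. Zeb1, Zeb2 and Snai2 were within 2-fold, and Snai1 and Twist1 were at the floor.

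**Figure D4:**
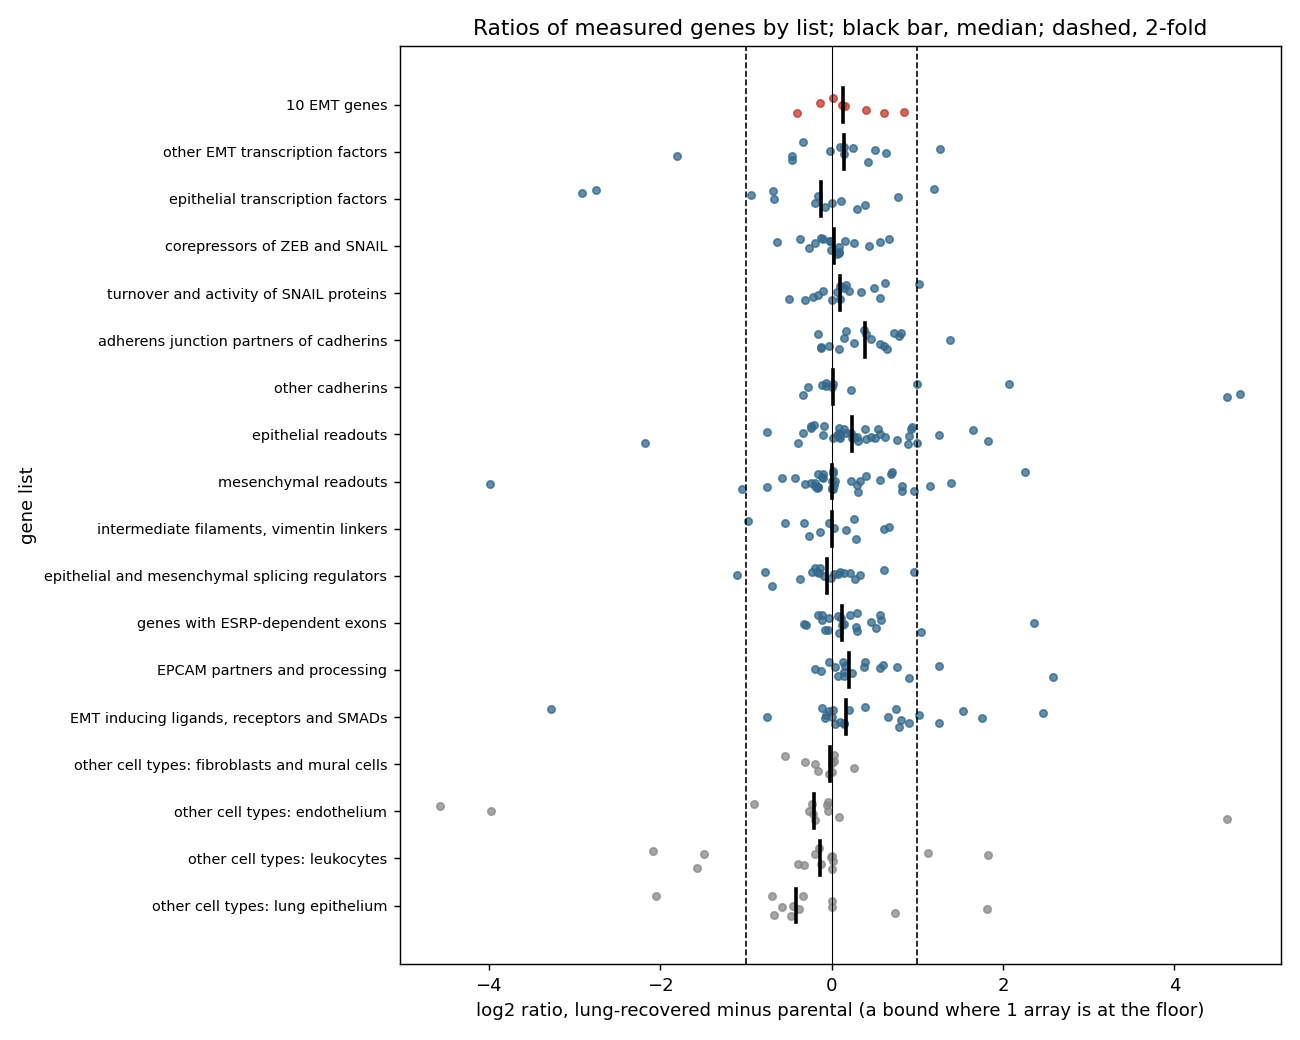
Log2 ratio, lung-recovered minus parental (horizontal axis), of the measured genes among the 10 (top row) and of each gene list (other rows, markers of other cell types in grey); 1 point per gene, black bars are medians, dashed lines mark 2-fold, and a gene at the floor on 1 array is drawn at its bound. The 8 measured of the 10 genes lie between -0.40 and 0.84, and most lists hold points past the dashed lines on at least 1 side.

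A culture grown from a lung tumour could hold mouse cells of other types, and such cells are known to express Vim, Zeb2 or Cdh5, so markers of such cells were measured. Of 20 fibroblast and mural genes, 10 were measured, and their median was -0.01. None passed 2-fold, beside 4.42% higher and 2.55% lower over all measured genes. The log2 of the summed linear signals of that list was 9.12 in the lung-recovered line and 9.26 in the parental line, with Col1a1 and Col3a1 at the floor in both. Bright genes weigh most in such a sum, so it does not measure the share of a cell type. Its brightest, the desmin gene Des, read 6.23 in the lung-recovered line and 6.78 in the parental line. Of 18 endothelial genes, 12 were measured with a median of -0.21 and a summed signal, on the same scale, of 10.73 in the lung-recovered line and 11.30 in the parental line. The endothelial adhesion gene Pecam1 was at the floor in both lines, at 3.44 in the lung-recovered line and 3.57 in the parental line, while Cdh5 was higher, Sox17 was 23.8-fold lower and Tek, which encodes a receptor for angiopoietins, was lower by at least 15.8-fold. Sox17 read 5.23 in the lung-recovered line and 9.80 in the parental line, and Tek read 3.43 in the lung-recovered line and 8.57 in the parental line, and the higher floor gave -3.65 and -2.42 log2 for this pair. The brightest by the mean of both arrays, Esam, read 8.70 in the lung-recovered line and 8.93 in the parental line.

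Of 22 leukocyte genes, 14 were measured with a median of -0.14, and the summed signals were 10.59 in the lung-recovered line and 11.42 in the parental line. Cd14 alone, at 9.14 in the lung-recovered line and 10.63 in the parental line, made a large part of these sums. The pan-leukocyte gene Ptprc was at the floor in both lines, at 2.82 in the lung-recovered line and 3.31 in the parental line. Higher were the lysosomal gene Cd68 (3.53-fold) and Csf1r (2.17-fold, named after its value was seen, with other probe sets at 0.02 and 0.78 log2), and lower were Plek (4.26-fold, or -1.08 log2 under a floor at the 60th percentile), Cd74 (2.97-fold) and the brightest, Cd14 (2.81-fold). Under a floor at the 60th percentile the Cd68 ratio was 0.87. Of 18 lung epithelial genes, 12 were measured with a median of -0.42. Their summed signals were 10.96 in the lung-recovered line and 11.36 in the parental line, with a large part from Aqp5. The defining lung genes Scgb1a1, Nkx2-1 and Sftpa1 were at the floor in both lines. Napsa was 4.14-fold lower, at 5.69 in the lung-recovered line and 7.74 in the parental line, Rtkn2 was at least 3.51-fold higher (a ratio of 0.32 under a floor at the 60th percentile), and the brightest, the water channel gene Aqp5, read 10.01 in the lung-recovered line and 10.68 in the parental line. Genes past 2-fold in these lists thus lay on both sides, and the part of other cell types in the signals of the 10 genes was not tested.

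For the epithelial state of the lung-recovered line, the measured facts were as follows. All 10 epithelial markers, Cdh1, Epcam and Esrp1 included, lay above the floor in both lines. In the values as deposited they were within 2-fold of the parental line, with Krt18 past it after scaling to equal medians. Over all measured genes 4.42% were 2-fold higher and 2.55% were 2-fold lower, so a count of 0 among 10 genes is near these shares. Epcam read higher by 0.84 and 0.38 log2. Vim was as bright as in the parental line within 0.20 log2, Cdh2 was near the floor in both, and Zeb1 had the higher signal by 1 probe set and not clearly by the other. The repressor gene Snai2 was well above the floor in both lines, with ratios of 0.02 and -0.10. Zeb2 had probe sets of opposite sign, and Snai1 and Twist1 were at the floor in both lines. Outside the 10 genes, Dsg2, Ehf and Tfcp2l1 were lower and Myo5b, Muc1, Spint1, Cdh17 and Grhl1 were higher. Ratios were above 0 for 30 of 39 epithelial readouts as deposited, and for 27 to 31 genes of that list under the scalings. Of 38 mesenchymal readouts measured, 3 (7.89%) were 2-fold higher and 2 (5.26%) were 2-fold lower in the values as deposited. The higher genes were Mmp14, Ccn1 and Pmp22, and the lower genes were Timp3 and S100a4. Under the scalings, 3 to 4 of these readouts were higher and 1 to 2 lower. Protein levels, cell shape and splicing were not measured.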

How the data were processed

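Total RNA of each line was labelled with biotin and hybridized to 1 Affymetrix array, per the labels' protocols. The deposited values are log2 signals with 2 decimals for 45037 probe sets, with base 2 taken from the range of the values. MAS5 appears in the submitters' processing notes without a stated role, and the summarization, scaling and detection calls are not given in the sources used here, so dim and bright genes may carry unequal error that cannot be estimated. The number of arrays limits the precision.

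Values were used as deposited. The platform annotation used to name probe sets lists 35877 of them, 34945 with 1 symbol and 932 with several, and 34741 of the symbols were brought up to the GRCm38.p6 gene table by Entrez identifier. The 9160 unlisted probe sets are unnamed here. A gene was represented by its probe set of highest mean signal. At a floor of the 40th percentile of each array, 13332 genes were measured and 4861 were not. Where 1 array was at the floor the fold is a bound, written "at least". Differences were counted at 2-fold with no test, since each line has 1 array.

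The 10 genes and 17 lists (400 of 421 symbols on the array, counting the markers) were chosen with earlier results of these data known, and list symbols that did not match are not analysed here. From each list the text names genes past 2-fold, at most 6 by size (4 for other cell types), and the brightest, and it says where another gene was chosen after its value was seen. Defining markers of each cell type are also named. The alternatives were 3 scalings (equal medians, quantile, lowess of span 0.3), a floor at the 20th or 60th percentile or no floor, the median over probe sets, leaving out suffixed probe sets (IDs ending in _s_at, _x_at or _a_at), and a 1.5-fold size. The counting was tested on simulated data. Python 3.11.15, numpy 2.4.6, pandas 2.3.3, statsmodels 0.14.6 and matplotlib 3.10.9 were used.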

Additional observations from a re-analysis of the deposited data

How the results depend on the processing

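Under the 8 alternatives that keep the 2-fold size, 0 of the 10 genes passed it in either direction, with 6 to 10 genes measured. At the 1.5-fold size, 2 were higher and 0 lower, and over all measured genes 1530 were higher and 927 lower in place of 589 and 340. Over the other alternatives those counts ranged from 439 to 720 higher and from 257 to 387 lower, and the median over all measured genes from -0.01 to 0.10 log2. The ratio ranged from 0.34 to 0.71 for Zeb1, 0.40 to 0.50 for Zeb2, -0.10 to 0.12 for Snai2, -0.15 to -0.04 for Cdh1, -0.40 to -0.29 for Cdh2, 0.14 to 0.25 for Vim, 0.04 to 0.22 for Esrp1 and 0.61 to 0.94 for Epcam. The values of 0.34 for Zeb1 and 0.61 for Epcam come from the median over probe sets and were the only 2 of 61 that moved by more than 0.17, the median spread between probe sets. Epcam has no value without suffixed probe sets, and Zeb2 and Cdh2 have none under a floor at the 60th percentile. Of 136 list medians under the alternatives, 8 moved by more than that spread and 11 took the opposite sign. Of 38 named list genes past 2-fold, 26 stayed past it under every alternative that gave a value. No paired analysis was possible because each line has 1 array and the labels give no replicate numbers.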
